A study of Mus musculus with 12 samples.

Results

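Long intergenic noncoding RNA (lincRNA) genes are transcribed by RNA polymerase II from loci that lie apart from protein-coding genes, and their RNAs are usually spliced but encode no known protein. Promoters of many genes, coding or not, fire in both directions, and active distal elements such as enhancers also start short transcripts. The testis, and its spermatocytes and spermatids in particular, is known for transcribing more lincRNA genes than most other tissues.

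The elements described here are candidate promoters that lie at lincRNA genes and at no other kind of gene. dREG is a tool that finds the read pattern of transcription initiation in run-on data and scores each peak, with higher scores for clearer patterns. Peaks from the 3 substage lists that overlapped or touched were merged into elements. An element was kept when it lay on chromosomes 1 to 19, its edge was under 1000 bp from a transcription start site (TSS) of a GENCODE M21 lincRNA gene, and it was 1000 bp or more from the TSSs of genes of every other type. This gave 2196 of 63116 autosomal elements. A further 612 elements near a lincRNA TSS were left out because a TSS of another gene type was also near. For comparison, 17192 elements met the same rule for protein-coding genes, 751 for antisense genes, and 37706 were distal, at 1000 bp or more from every TSS.

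The cells were wild-type (WT) mouse spermatocytes from adult animals, enriched by size and density in a gravity gradient (STAPUT). For its mice in general the paper names C57Bl/6J or DBA/2J stock. The 3 groups were Leptonema/Zygonema, Pachynema and Diplonema, with 4 leChRO-seq libraries in each, and the labels name no treatment. leChRO-seq extends the transcripts of engaged polymerases on chromatin with labelled nucleotides and sequences the nascent RNA. The 4 libraries of a substage were pooled before peak calling, so each substage had 1 list (71107 peaks in leptonema/zygonema, 68352 in pachynema, 38603 in diplonema). There was therefore no replicate spread, no test between substages was made, and the 95% Wilson intervals cover the counting of elements only. The lists hold no read counts, and an element that lacks a peak in a list may still be active there. Differences in list length and depth between substages cannot be told apart from differences between the cells.

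The labelled cell type was checked at its marker genes. Of 12 spermatocyte genes, among them the synaptonemal complex genes Sycp1, Sycp2 and Sycp3, 12 had a leptonema/zygonema peak under 1000 bp from a TSS, 12 a pachynema peak and 11 a diplonema peak. Of 5 genes of spermatids, 5 had a peak in every list, and of 5 spermatogonial genes, 3 did. Of 4 Sertoli genes, 1 had a leptonema/zygonema peak, 3 a pachynema peak and 2 a diplonema peak. The 4 Leydig genes (Cyp17a1, Hsd3b1, Insl3, Star) and the 5 peritubular and blood genes had none in the 3 lists. The part of other cell types in the results below was not tested.

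Below are windows of 241 bases around the dREG centre of the highest-scoring lincRNA promoter element called in all 3 lists (Gm34419), in pachynema and diplonema only (Gm45027), in pachynema only (Gm48823) and in leptonema/zygonema only (Gm49762). They are shown because these are the strongest examples of the 4 call patterns the results turn on. Each is read from GRCm38 on the strand of the gene, and capitals mark letters of the MYB motif (CNGTTA or CNGTTG, on either strand).
Gm34419: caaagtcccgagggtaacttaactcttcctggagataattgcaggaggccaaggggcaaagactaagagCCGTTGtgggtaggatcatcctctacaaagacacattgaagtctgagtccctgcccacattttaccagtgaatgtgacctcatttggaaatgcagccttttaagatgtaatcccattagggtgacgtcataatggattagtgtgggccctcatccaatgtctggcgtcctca
Gm45027: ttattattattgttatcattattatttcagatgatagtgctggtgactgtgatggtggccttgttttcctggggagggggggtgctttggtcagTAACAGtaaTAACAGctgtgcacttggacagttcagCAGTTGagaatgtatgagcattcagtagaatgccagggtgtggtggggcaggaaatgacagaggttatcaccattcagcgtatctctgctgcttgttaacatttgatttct
Gm48823: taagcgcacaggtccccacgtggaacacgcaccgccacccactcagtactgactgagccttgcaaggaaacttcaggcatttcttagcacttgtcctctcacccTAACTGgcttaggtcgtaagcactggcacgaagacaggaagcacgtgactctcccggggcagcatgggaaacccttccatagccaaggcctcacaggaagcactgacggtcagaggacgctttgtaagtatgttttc
Gm49762: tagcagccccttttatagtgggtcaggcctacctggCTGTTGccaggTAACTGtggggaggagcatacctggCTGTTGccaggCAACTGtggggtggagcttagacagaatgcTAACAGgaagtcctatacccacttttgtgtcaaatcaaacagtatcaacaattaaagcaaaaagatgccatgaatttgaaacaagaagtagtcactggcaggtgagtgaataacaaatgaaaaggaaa

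The Gm34419 window (chr8:35095101-35095341, plus strand) lay downstream of the annotated TSS at 35094545 and held 1 MYB match, 1 CCAAT and 1 CREB match. The Gm45027 window (chr11:77200891-77201131, minus strand) held 3 MYB matches and 1 CpG, and the TSS lay just past its end at 77200819. The Gm48823 window (chr12:73822411-73822651, plus strand) held the TSS at base 177, 1 MYB match and 10 CpGs. The Gm49762 window (chr13:74474541-74474781, plus strand) held the TSS at base 103 and no CpG. It also held 5 MYB matches, more than the other windows, although it was called before pachynema only, and 2 RFX matches that overlap MYB matches. GC content was 47.3% at Gm34419, 43.2% at Gm45027, 54.8% at Gm48823 and 44.8% at Gm49762. A match is a string of letters and not evidence of binding.

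Over all GC contents, lincRNA promoter elements were called in leptonema/zygonema and pachynema about as often as other promoters, and less often in diplonema. Against protein-coding promoters alone, the diplonema share was higher in each GC range under 55%, as given below. A leptonema/zygonema peak was present in 80.6% of them (95% interval 78.8 to 82.2%), against 81.7% of all 25410 elements under 1000 bp from any TSS. A pachynema peak was present in 80.3% (78.6 to 81.9%), against 81.6%. A diplonema peak was present in 50.9% (48.8 to 53.0%), against 56.8%. Peaks in all 3 lists were found at 927 elements, or 42.2% (40.2 to 44.3%), against 49.4%. A peak in pachynema and none in leptonema/zygonema was found at 16.5% (15.0 to 18.1%), against 15.2%. That share was 10.6% of the elements with a lincRNA TSS inside and 25.9% of those with it outside. Protein-coding promoter elements divided likewise, at 7.64% with the TSS inside and 29.3% with it outside.

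Among the single lists and over all GC contents, the gap to protein-coding promoters was widest in diplonema. It was wider still for peaks in all 3 lists. Of protein-coding promoter elements, 58.3% had a diplonema peak and 51.1% had a peak in all 3 lists. The direction turned with the GC content of the 201 bp around the highest peak's centre. Under 40% GC, 42.9% of lincRNA and 36.4% of protein-coding elements had a diplonema peak. At 50 to 55% GC it was 53.5% and 49.4%, at 55 to 60% 54.1% and 59.9%, and from 60% on 57.1% and 69.7%. Peaks in all 3 lists were at 35.0% and 22.3% under 40% GC, and at 45.7% and 65.1% from 60% on. Antisense promoter elements were called in leptonema/zygonema in 82.2%, in pachynema in 74.7%, in diplonema in 46.6% and in all 3 lists in 37.2%. Distal elements lay far below, at 27.0% in diplonema and 19.4% in all 3 lists. Of the other lincRNA elements, 475 were called in leptonema/zygonema and pachynema, 351 in leptonema/zygonema only, 253 in pachynema only, 109 in pachynema and diplonema, 65 in diplonema only, and 16 in all but pachynema.

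**Figure D1:**
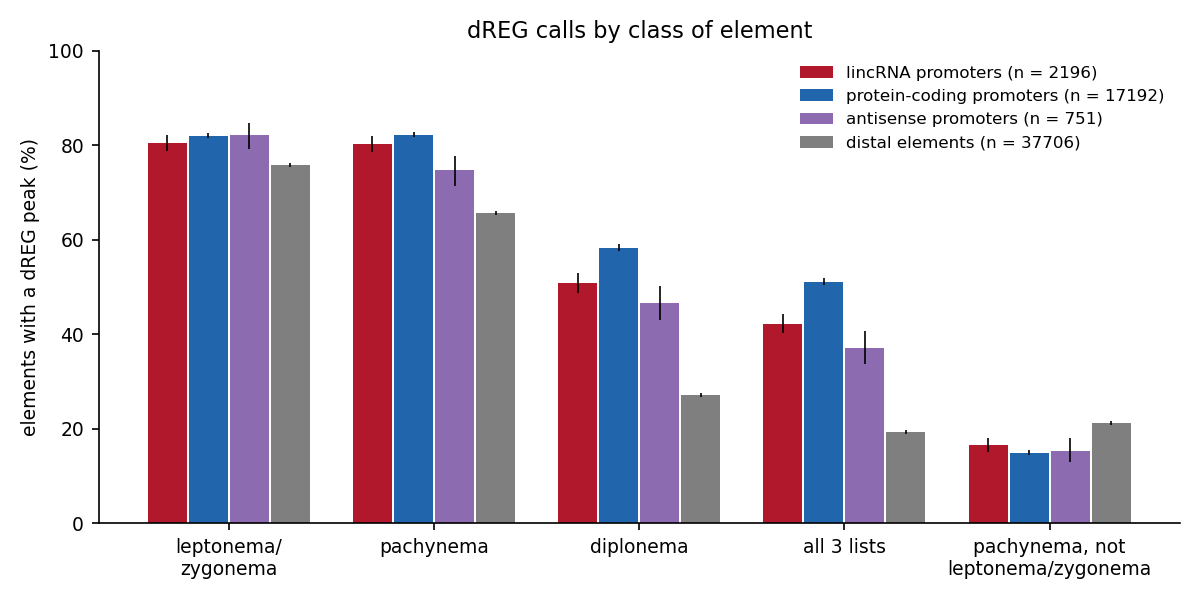
Share of elements (y axis, percent) with a dREG peak in each list, in all 3 lists, or in pachynema without leptonema/zygonema, for 4 classes of element; bars are shares and lines are 95% Wilson intervals over elements. The lincRNA bars lie close to the protein-coding bars in the first 2 lists, at 80.6% and 80.3%, and below them in diplonema, at 50.9% against 58.3%.

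The diplonema list is the shortest, and the shares were recomputed with lists of equal size. With only the top 38603 peaks of each list by score, 74.0% of lincRNA promoter elements had a leptonema/zygonema peak, 74.2% a pachynema peak and 72.3% a diplonema peak. With these lists protein-coding promoter elements had shares of 75.7%, 77.0% and 79.7%, and distal elements 70.3%, 61.8% and 52.6%. In diplonema lincRNA promoters still lay between these classes, below protein-coding promoters by about as much as with the whole lists.

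How far the calls carried from one substage to the next gave the same order of protein-coding, lincRNA and distal elements. Of 1769 lincRNA elements with a leptonema/zygonema peak, 79.3% (77.3 to 81.1%) also had a pachynema peak, against 82.2% at protein-coding promoters and 58.6% at distal elements. Of 1764 lincRNA elements with a pachynema peak, 58.7% (56.4 to 61.0%) also had a diplonema peak, against 66.2% and 35.9%. The order also held among elements with a pachynema score from 0.8 to 1.1. Of these, a diplonema peak was present at 86.4% of 455 lincRNA, 91.8% of protein-coding and 72.0% of distal elements. Among elements with a highest score under 0.5, lincRNA and protein-coding promoters were alike, with 3.44% and 3.36% called in all 3 lists, against 1.35% of distal elements. Of antisense elements with a leptonema/zygonema peak, 72.3% also had a pachynema peak. Of those with a pachynema peak, 57.4% (53.3 to 61.4%) also had a diplonema peak, close to the lincRNA share.

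dREG scores are not scaled between lists, so they were compared within a list. The median score of lincRNA promoter elements was 0.761 in leptonema/zygonema (quartiles 0.458 and 1.11), 0.731 in pachynema (0.451 and 1.04) and 0.635 in diplonema (0.427 and 0.886). Protein-coding promoter elements had medians of 0.843, 0.810 and 0.727, and distal elements 0.538, 0.519 and 0.484. The classes overlapped widely, since the upper quartile of distal elements in leptonema/zygonema (0.880) lay above the lincRNA median. The median width was 660 bp for lincRNA, 720 bp for protein-coding and 490 bp for distal elements.

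An annotated lincRNA TSS lay inside 1349 of the elements (61.4%), and these differed sharply from the other 847. Elements with the TSS inside had a median highest score of 0.973 and a median width of 830 bp, and 59.3% were called in all 3 lists. Elements with the TSS outside had a median highest score of 0.429 and a median width of 460 bp, and 15.0% were called in all 3 lists. A wide element covers a TSS more often by its width alone, and how far width accounts for the gap was not tested. Protein-coding promoter elements divided in the same way, with 69.3% of those with the TSS inside and 14.5% of those with it outside called in all 3 lists.

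The 1000 bp limit of the rule did not mark a change in these values. Elements 750 to 1000 bp from a lincRNA TSS, just inside the limit, numbered 168, with a median highest score of 0.455 and 17.3% called in all 3 lists. Elements 1000 to 1250 bp away, just outside it, numbered 149, with a median of 0.463 and 16.8%. Already at 1 to 250 bp the median was 0.448 and the share 16.0%.

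**Figure D2:**
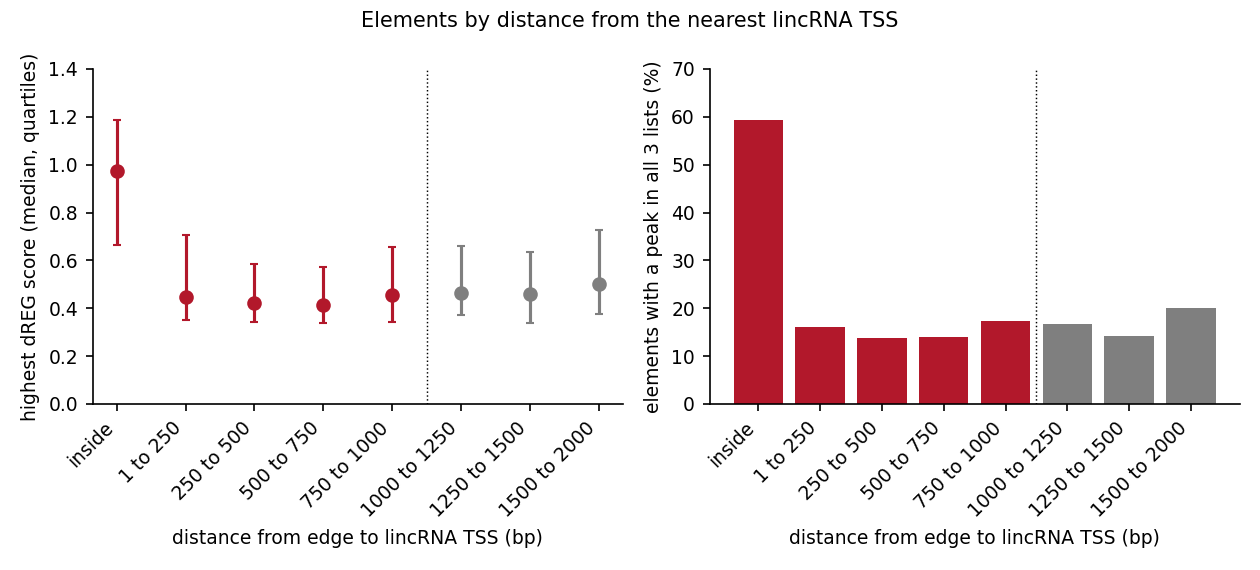
Highest dREG score (left, median with quartiles) and share of elements with a peak in all 3 lists (right, percent) by distance from the element's edge to the nearest lincRNA TSS in bp; red elements belong to the lincRNA promoters, grey elements lie past the 1000 bp limit (dotted line). Elements that hold the TSS stand apart at a median of 0.973, and the values on both sides of the limit are alike.

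The highest peak sat close to the annotated start where the TSS lay inside the element. Its centre was a median of 45 bp upstream of the TSS (quartiles 97 bp upstream and 9 bp downstream), upstream in 71.3% of elements and within 250 bp in 89.0%. At protein-coding promoters with the TSS inside, the median was 30 bp upstream and 89.7% lay within 250 bp. A total of 101 elements lay near lincRNA TSSs of both strands.

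In base composition the lincRNA promoter elements lay with distal elements and not with protein-coding promoters. CpG islands, stretches rich in G, C and the CpG pair, mark most promoters of broadly expressed genes. In windows of 201 bp around the highest peak's centre, the median GC content was 48.8% for lincRNA (quartiles 43.8 and 53.2%), 48.8% for antisense, 47.8% for distal and 58.7% for protein-coding promoter elements. GC content was above 60% in 6.38% of lincRNA, 4.67% of distal and 46.4% of protein-coding elements. The observed-to-expected CpG ratio had medians of 0.22, 0.20 and 0.64 in the same order. Repeats, as soft-masked in the reference, covered at least 1 base in 64.0% of lincRNA windows, 64.9% of distal windows and 45.5% of protein-coding windows.

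The difference in composition grew with the score. Protein-coding elements went from a median GC content of 52.7% at highest scores under 0.5 to 63.2% at scores of 1 or more. lincRNA elements stayed at 48.3% and 48.8%. The GC box (GGGCGG), the letters bound by SP1-family factors, was found in 54.4% of the 6203 protein-coding elements and 8.91% of the 696 lincRNA elements scoring 1 or more. Over all elements of the series, 18.3% held it.

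**Figure D3:**
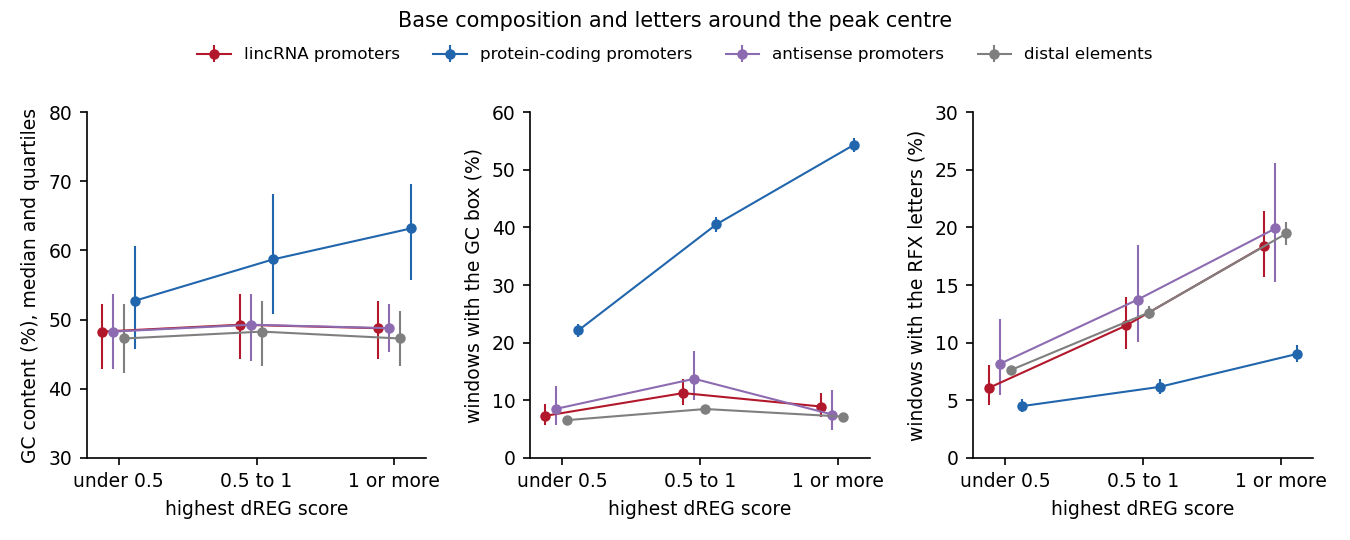
GC content (left, median with quartiles) and share of windows with the GC box (middle) or the RFX letters (right, percent with 95% Wilson intervals) by highest dREG score, in 201 bp around the peak centre. lincRNA elements follow distal elements in all 3 panels, with 8.91% holding a GC box at scores of 1 or more against 54.4% of protein-coding elements.

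Letters bound by germ-cell factors were counted on both strands of the same windows. A-MYB, encoded by Mybl1, is a master regulator of pachytene transcription, and RFX factors drive genes of cilia and spermatids. The MYB letters were found in 48.2% of lincRNA elements (46.1 to 50.3%), 47.4% of distal and 36.6% of protein-coding elements, and in 43.8% of all elements. With the other MYB consensus GGCNGTT the shares were 10.8%, 9.93% and 9.66%, a far smaller gap, and with 250 bp to each side the share of lincRNA windows with the first letters was 76.4%. The RFX letters (GTTGCCA or GTTGCTA, which can overlap the MYB letters) were found in 11.9% (10.6 to 13.3%), 11.2% and 6.67%, and in 9.70% of all elements. The CREB letters (TGACGTCA or TGACGTAA), bound by CREM in spermatids, were found in 1.68%, 1.20% and 2.61%, and in 1.73% of all elements. TATAAA was found in 9.88%, 10.8% and 5.08%, and in 8.90% of all elements. CCAAT was found in 28.5%, 26.7% and 25.9%, and in 26.5% of all elements. The ETS letters (CCGGAAG) were found in 3.83%, 2.42% and 8.89%, and in 4.64% of all elements. The E-box (CACGTG) was found in 4.55%, 3.65% and 6.43%, and in 4.57% of all elements. Antisense promoter elements held the MYB letters in 43.7% (40.2 to 47.2%) and the RFX letters in 13.6% (11.3 to 16.2%).

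The shares also moved with GC content, and the gap to protein-coding elements was not the same at each GC content. Among windows under 40% GC, the RFX letters were in 6.69% of lincRNA and 7.71% of protein-coding elements, at 40 to 45% GC in 10.05% and 7.53%, and at 45 to 50% GC in 11.8% and 11.3%. At 50 to 55% GC they were in 15.9% and 8.64%, at 55 to 60% in 13.1% and 7.33%, and from 60% on in 9.29% and 4.38%. The MYB letters were in 42.1% of lincRNA and 41.2% of protein-coding elements under 40% GC, in 47.1% and 46.6% at 40 to 45%, and in 54.0% and 45.5% at 45 to 50%. In the 3 higher ranges they were in 51.5% and 43.3%, 44.7% and 40.1%, and 30.7% and 28.8%.

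The MYB and RFX letters varied with the call pattern, each in its own way. MYB letters were found in 59.6% of the 109 lincRNA elements called in pachynema and diplonema only (50.2 to 68.4%), 52.1% of those called in all 3 lists, 45.5% of the 253 called in pachynema only, 40.0% of the 65 called in diplonema only and 38.7% of the 351 called in leptonema/zygonema only (33.8 to 43.9%). In pachynema and diplonema only, all 3 lists and leptonema/zygonema only, distal elements showed 60.6%, 51.3% and 44.3%, and protein-coding elements 45.7%, 37.1% and 36.5%. In pachynema only and diplonema only, distal elements showed 47.0% and 46.0%, and protein-coding elements 37.3% and 33.8%. RFX letters were found in 5.50% of lincRNA elements called in pachynema and diplonema only, 15.6% of those called in all 3 lists and 9.12% of those called in leptonema/zygonema only. Distal elements had nearly the same RFX shares in these patterns, at 5.51%, 16.8% and 9.49%, and protein-coding elements had 3.94%, 7.83% and 6.29%. Of lincRNA elements called in leptonema/zygonema and pachynema, 47.6% held the MYB letters and 13.7% the RFX letters. Distal elements called in these lists had nearly the same shares, 46.6% and 14.0%, and protein-coding elements had 32.9% and 6.80%. RFX letters were in 5.14% of lincRNA elements called in pachynema only and in 0 of the 65 called in diplonema only. Distal elements of these 2 patterns had 6.23% and 5.82%. MYB and RFX letters also moved with the score. RFX letters went from 6.06% of lincRNA elements under 0.5 to 18.4% of those at 1 or more, and MYB letters from 41.3% to 53.4%. Under 0.5, distal elements had RFX letters in 7.61% and MYB letters in 44.7%, and protein-coding elements in 4.48% and 36.7%. Score and call pattern move together, and their shares in the MYB and RFX differences were not tested.

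Seen from the genes, a minority of lincRNA genes had a called element at their start. Of 5209 autosomal lincRNA genes, 2052 (39.4%, 38.1 to 40.7%) had any element under 1000 bp from a TSS, against 64.8% of 20807 protein-coding genes and 45.5% of 2913 antisense genes. A pachynema peak was present at 36.0% of lincRNA genes, a leptonema/zygonema peak at 34.8% and a diplonema peak at 26.7%. The lincRNA-only elements lay near 1648 of these genes. Each was named by its nearest TSS, which gave 1581 genes, 1080 with 1 element and 501 with 2 or more.

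Genes known from testis cDNA clones stood out. RIKEN symbols carry the prefix of a cDNA library, and those with the prefixes seen in 1700026J12Rik and 4930444M15Rik, and with the related ones, were first given to clones from adult testis. Of 585 such lincRNA genes, 533 (91.1%, 88.5 to 93.2%) had an element, against 34.6% of 480 genes with other RIKEN symbols, 31.7% of 3608 genes with Gm symbols and 39.2% of 536 with other symbols. Diplonema peaks were present at 73.0% of the testis clone genes and 20.3% of the Gm genes. These genes were annotated from RNA found in testis, so the kind of symbol is not independent of transcription there. Their 661 elements were called in all 3 lists in 51.6% and in pachynema without leptonema/zygonema in 11.7%, whereas the 135 elements of other RIKEN genes were called in all 3 lists in 25.2% and in pachynema without leptonema/zygonema in 29.6%. The 1175 elements of Gm genes lay between, at 39.6% and 16.6%, as did the 225 of genes with other symbols, at 38.7% and 22.2%.

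**Figure D4:**
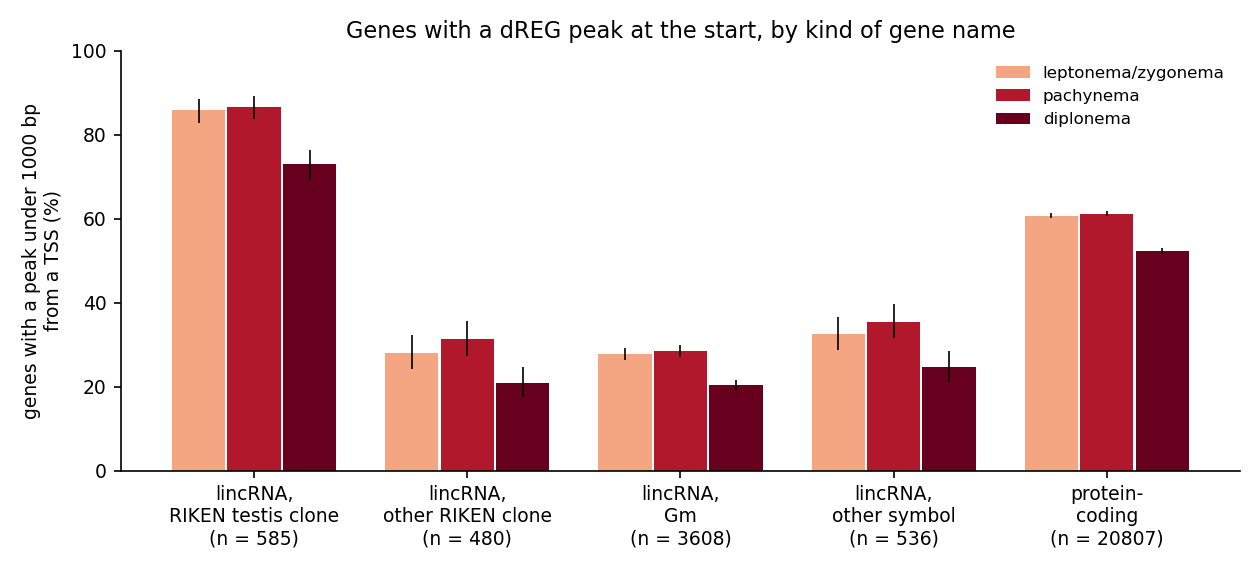
Share of genes (y axis, percent, with 95% Wilson intervals over genes) with a dREG peak under 1000 bp from a TSS in each list, for lincRNA genes by kind of symbol and for protein-coding genes. Testis clone lincRNA genes reach 86.7% in pachynema, above protein-coding genes at 61.2%, and the other lincRNA genes lie below.

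The strongest elements were found at lincRNA genes that mostly carry only a clone or model name, and no function is given for them here. Such names are the rule, since only 225 of all 2196 elements were named by a gene with another kind of symbol. At Gm34419 the element (chr8:35094851-35095590), 306 bp from the TSS, scored 1.49 in pachynema, 1.42 in leptonema/zygonema and 1.103 in diplonema. These are percentiles of 99.99, 99.7 and 94.7 within the lists, where a percentile is the share of a list's peaks with a lower score. 4930444M15Rik (chr14:76520011-76521340) held the TSS and scored 1.49 at first, 1.22 in pachynema and 0.839 in diplonema. Gm40918 (chr13:37715061-37715630) lay 681 bp from the TSS. It scored 1.49 in leptonema/zygonema and 0.433 in diplonema, at percentiles of 99.9 and 35.3, with 88.5 in pachynema. These elements were high in the first 2 lists, and only Gm34419 stayed near the top in diplonema.

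Elements without a leptonema/zygonema peak reached high scores too. Gm45027 (chr11:77200691-77201270), near the calcium-binding protein gene Efcab5, scored 1.34 in pachynema and 1.09 in diplonema, at percentiles 99.2 and 93.9. Gm13794 (chr2:95393791-95394420) scored 1.26 and 0.926, and 4930591A17Rik (chr2:179414521-179415490) scored 1.19 and 0.746. Efcab5 itself had no peak under 1000 bp from a TSS. Among elements called in pachynema only, Gm48823 scored 0.944 (chr12:73822061-73822790), Gm48901 0.896 and Gm14266 0.825.

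The reverse pattern was also present. Gm49762 (chr13:74474231-74474970) scored 1.08 in leptonema/zygonema and had no later peak, and 4930526H09Rik scored 0.991 and Gm1627 0.944. The Gm1627 element lay 82 bp from the TSS. Of elements called in leptonema/zygonema and pachynema, Gm11217 scored 1.38 and 0.744, 4930583P06Rik 1.36 and 1.13, and Gm32834 1.29 and 1.12. Of elements called in diplonema only, Gm16188 scored 0.810, Gm45868 0.703 and 1700026F02Rik 0.697, at percentiles of 76.7, 67.9 and 67.4 in that list. The edge lay 969 bp from the TSS at Gm16188 and 155 bp at 1700026F02Rik. The 16 elements called in all but pachynema were led by 1700124M09Rik at 0.571 in leptonema/zygonema and 0.279 in diplonema. Gm29538 followed at 0.516 and 0.324, and Gm34059 at 0.454 and 0.455. The edges of these leading elements lay 778, 588 and 64 bp from the TSS, in that order.

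Percentiles were set side by side as a description, since they are taken within lists of unequal length and a list that lacks weak peaks gives a lower percentile to each peak it holds. Over 1402 elements called in both lists, the median difference in percentile, pachynema minus leptonema/zygonema, was -2.57 (quartiles -12.1 and 4.09), against 0.84 at protein-coding and -6.06 at distal elements. Over 1036 elements called in pachynema and diplonema the median of diplonema minus pachynema was -12.3 (quartiles -29.3 and -0.46), against -7.24 and -17.0. It was negative in each class, and no change in initiation can be read from it.

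The elements named next were picked for the largest differences between lists, so they lie far from the median. From leptonema/zygonema to pachynema, the 5th and 95th percentiles of the difference were -35.7 and 34.9 at lincRNA elements. They were -29.7 and 27.6 at protein-coding and -44.6 and 31.8 at distal elements. 4930477E14Rik (chr3:96401361-96402520) lay at percentile 1.85 in the leptonema/zygonema list, 90.8 in the pachynema list and 97.3 in the diplonema list. 1700026J12Rik (chr16:49255041-49256310) lay at 4.28, 86.0 and 97.3. Gm5878 (chr6:85125111-85126610) lay at 18.97, 99.1 and 99.98, with scores of 0.374, 1.33 and 1.39. 4930548K13Rik went from 2.96 to 83.2 and 4930556C24Rik from 7.93 to 86.4 in pachynema. All 5 had a diplonema peak, as did 89.7% of all lincRNA elements scoring 1 or more.

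The 5 elements with the largest drop into pachynema had no diplonema peak, and of all 540 lincRNA elements with a pachynema score under 0.5, 17.6% had one. Gm31447 (chr12:69129551-69130200) went from percentile 72.7 to 2.52, Gm48215 from 76.2 to 6.41 and Gm32090 from 81.5 to 14.1. Gm48428 went from 77.1 to 13.0, and Gm26527, 256 bp from the TSS, from 66.3 to 4.11. Soft-masked repeats covered 81.1% of the 201 bp window at Gm48215 and 100% at Gm32090. They covered 10.4% at Gm31447, 20.4% at Gm48428 and 9.95% at Gm26527. From pachynema to diplonema, Gm28050 went from 94.3 to 0.26, Gm31577 from 98.7 to 8.33 and Gm47823 from 92.1 to 6.07, with leptonema/zygonema percentiles of 94.5, 99.5 and 91.4. A second element of 1700026F02Rik went from 8.13 to 74.9, Gm47709 from 1.84 to 68.0 and Gm13833 from 23.2 to 75.9.

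**Figure D5:**
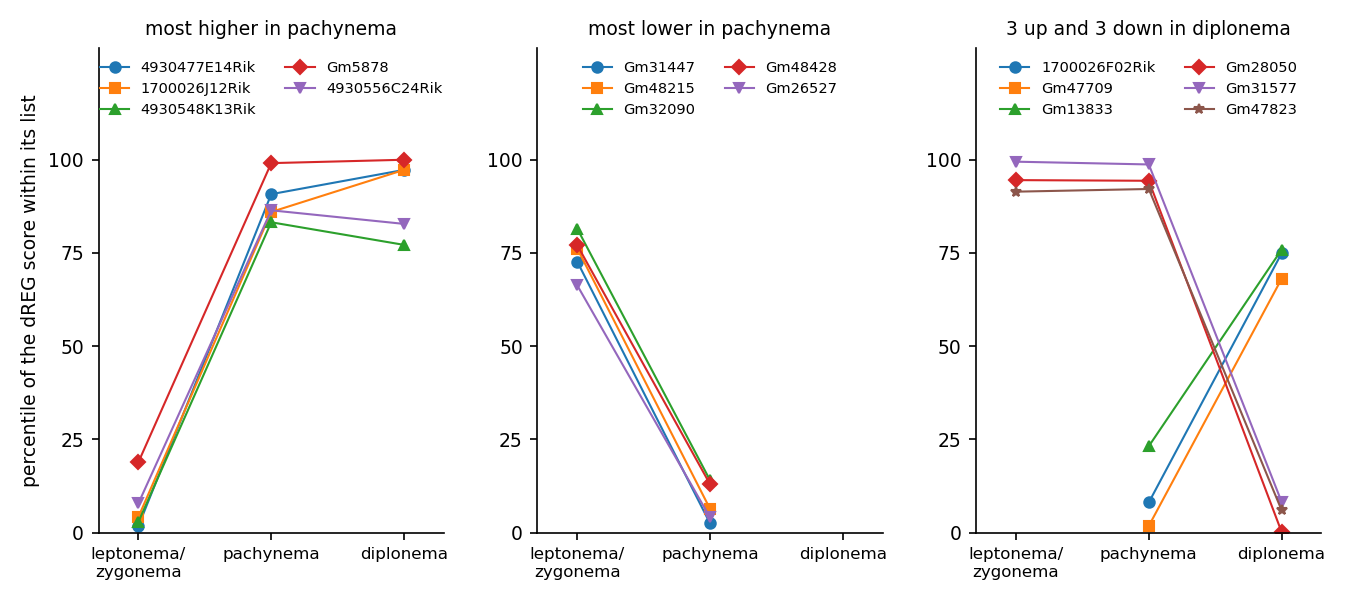
Percentile of the dREG score within its list (y axis) in each substage for the 5 elements that moved up most and the 5 that moved down most into pachynema, and the 3 that moved up most and the 3 that moved down most into diplonema; a missing point means that no peak was called. The risers of the left panel start under the 20th percentile and the fallers of the middle panel end under the 15th with no diplonema point.

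lincRNA genes with known names were searched for among the elements. Of 67 noncoding RNA genes searched by name, 57 were found on chromosomes 1 to 19 and 30 of these were annotated as lincRNA. Of the 30, 9 had a lincRNA-only element, 13 had an element that also lay near a TSS of another gene type and 8 had none. Over all 5209 lincRNA genes, 2052 had an element and 1648 of these a lincRNA-only one. Snhg6, a host gene of small nucleolar RNAs, had a leptonema/zygonema score of 1.24, a pachynema score of 1.07 and a diplonema score of 0.682. Dubr scored 1.14, 1.16 and 0.740. Rmst, known from neurons, scored 1.06 and 0.717 and had no diplonema peak.

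The gene 2900097C17Rik, known as Norad and as a decoy of Pumilio proteins, scored 0.598 in leptonema/zygonema and 0.385 in pachynema. Lncenc1, known from embryonic stem cells, had 1 weak pachynema peak at 0.316, with its edge 861 bp from the TSS. Trp53cor1, the p53 target next to Cdkn1a, had 1 leptonema/zygonema peak at 0.415. Lncpint, another p53 target, had 5 elements, with highest scores from 0.292 to 0.832. The highest-scoring of these lay 186 bp from the TSS. Of the well-known lincRNA genes shared with another type's TSS, Malat1 and Pvt1 had peaks in every list, Neat1 in pachynema and diplonema, Meg3 in leptonema/zygonema and pachynema, and H19 in pachynema only. Hotair, Hottip and Miat had no element.

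The rule kept out elements under 1000 bp from a TSS of another type, so the distance to protein-coding genes is given only as a description. The nearest protein-coding TSS was a median of 66577 bp away (quartiles 25583 and 181704 bp), at 1000 to 5000 bp for 122 elements (5.56%) and at 50000 bp or more for 1283. Of the 122, 84 (68.9%) were divergent, with the lincRNA TSS upstream of the protein-coding gene and on the other strand, against 24.3% of those at 50000 bp or more. Inside a protein-coding gene lay 71 elements (3.23%).

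The nearest protein-coding gene had peaks in all 3 lists for 55.6% to 63.1% of lincRNA elements over the 7 call patterns. The share was 57.8% for lincRNA elements called in all 3 lists and 60.6% for those called in pachynema and diplonema. It was 56.5% for those called in pachynema only, 55.6% in leptonema/zygonema only and 63.1% in diplonema only. That gene had itself a pachynema and no leptonema/zygonema peak for 119 elements (5.42%), and for 3 of the 109 lincRNA elements called in pachynema and diplonema. By pattern this ran from 1.54% for elements called in diplonema only to 7.69% for those called in leptonema/zygonema only. The nearest protein-coding gene had any peak for 76.0% of elements, against 64.8% of all 20807 protein-coding genes. A diplonema peak, which peaks in all 3 lists require, was present at 52.3% of all protein-coding genes. The shares of all protein-coding genes with the 2 patterns themselves are not given here, and the difference was not tested.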

How the data were processed

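leChRO-seq libraries of 3 prophase I substages, 4 each, were analysed through their dREG peaks. The authors used PRINSEQ lite to drop duplicates that shared a molecular identifier, cutadapt to trim and BWA to map to mm10 with rRNA added, and called peaks with dREG at default settings on the merged libraries of a substage. The dREG version is not given in the sources used here. The methods describe paired-end and the labels single-end reads. The deposited score of each peak has no fixed range. The deposited p-value is at most 0.05, and whether it is adjusted is not stated. The deposited position of each peak centre was used for windows and offsets.

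Peaks were merged at their deposited positions. No peak ran past a chromosome end of GRCm38 (0 found). TSSs were the 5′ ends of all GENCODE M21 transcripts. An element was described by its highest peak in each list. Sequence windows reached 100 bp to each side of the centre. Intervals are Wilson 95%. Steps were tested on simulated data. The work used pandas 2.3.3, numpy 2.4.6, Python 3.11.15, matplotlib 3.10.9 and scipy 1.17.1.

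Elements named were members of a list of known noncoding RNA genes, the 3 highest-scoring members of each of the 7 call patterns, the 5 moving most up and down in percentile into pachynema and the 3 into diplonema, and the 3 genes with most elements. Elements on chromosome 18 were counted and not named. The members and lists were chosen with earlier results of these data known. Alternatives were stricter scores or p-values, lists of equal size, other merging, TSS sets, distances and windows, and another MYB consensus.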

Additional observations from a re-analysis of the deposited data

How the results depend on the processing

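No paired analysis was possible because the 4 libraries of each substage were pooled into 1 list before calling, so that no replicate could be paired or left out either. Of 82 values recomputed under an alternative, 47 stayed within the 95% interval of the reported value or, for the number of elements, within 1.5 times of it. The others are given here as shares of lincRNA promoter elements with a leptonema/zygonema, a pachynema and a diplonema peak, with peaks in all 3 lists, and with a pachynema and no leptonema/zygonema peak. The cause was not tested unless the construction shows it.

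Lists of equal size gave 74.0%, 74.2%, 72.3%, 49.0% and 13.0%, since the longer lists lost their weaker peaks. Merging peaks up to 100 bp apart gave 84.8%, 85.7%, 58.1%, 50.8% and 13.2%, since larger elements hold more peaks. A limit of 500 bp from a lincRNA TSS gave 82.4%, 84.0%, 55.8%, 47.7% and 14.9%. A score of at least 0.5 gave 84.3% for leptonema/zygonema, 47.6% for diplonema, 39.6% for all 3 lists and 13.8% for pachynema without leptonema/zygonema. Chosen after seeing the data were 2 further sets. The 1349 elements with a lincRNA TSS inside gave 88.4%, 91.9%, 65.2%, 59.3% and 10.6%. Taking the highest-scoring element of each gene gave 86.2%, 88.5%, 61.3%, 54.5% and 12.3%.

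With 250 bp to each side of the centre, the median GC content was 47.7% and the MYB letters were found in 76.4% of the longer windows. The consensus GGCNGTT was found in 10.8% of lincRNA, 9.66% of protein-coding and 9.93% of distal elements, and the gap between lincRNA and protein-coding promoters was then small. The share of lincRNA genes with an element was 37.7% with gene 5′ ends only and 33.7% with a score of at least 0.5. Under the p-value of 0.01, the centre distance, the 5000 bp limit, gene 5′ ends and basic transcripts, the values for elements stayed within the reported intervals. The lists hold no read counts, so how far depth limits the calls was not tested.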

Other observations

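lincRNA promoter elements were spread over all 19 autosomes. Chromosome 10 held the most (205, or 52.6 for every 100 annotated lincRNA genes) and chromosome 13 the next (176, or 42.5). Chromosome 3 had the fewest for its lincRNA genes, at 31.8 for every 100. lincRNA genes with 4 or more exons had an element in 46.5%, against 32.9% of those with 1 exon, 36.3% with 2 and 37.2% with 3.

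The genes with most elements, 5 each, were 1700010L04Rik, Lncpint and Gm29154. At Gm29154 the strongest element scored 1.18 in leptonema/zygonema, 1.08 one substage later and 1.14 in diplonema, and its weakest 0.317 in leptonema/zygonema only. At 1700010L04Rik the highest score was 0.803, and 2 of its 5 elements had a pachynema peak.

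Of the 140 elements above 60% GC, 54.3% held a GC box, against 68.9% of protein-coding elements in that range.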
